A study of Ovis aries with 30 samples.

Results

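PPARG, CEBPB and LEP, 3 genes that control or mark fat cells, were followed in the epicardial adipose tissue (EAT) of sheep, the fat that lies on the surface of the heart muscle. The members were all probes that carry one of these genes by the gene name on the array or by the symbol or full name in the probe's description, and 5 probes of 15008 on the array met this rule, for 3 of the 1032 genes that the array names. PPARG and CEBPB had 1 probe each. LEP had 3 probes, of which 2 carry the gene name and 1 was found by its description alone.

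EAT was collected from 30 animals, and each array held the RNA of 1 animal. The Control fetuses (n = 8) were taken at term from untreated ewes. The CORT fetuses (n = 6), also taken at term, came from ewes given cortisol at 1 mg/kg per day from gestational day 115. The Control lambs (n = 7) and the CORT lambs (n = 9) were 2 weeks old. The Control lambs are labelled untreated, and the ewes of the CORT lambs had received 0.5 mg/kg per day from day 115 of pregnancy. Cortisol was given to the ewe and never to the fetus or lamb. In the lamb study Black-faced ewes received it as Solu-Cortef overnight and only until birth, so that the lambs were 2 weeks past the exposure. That study had 1 set of twins in each group of ewes, and which lambs were twins is not labelled. All tests treat the animals as independent. Since dose differed between the ages, the difference between the cortisol effects of lambs and fetuses is one between different exposures as well as ages.

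PPARG encodes peroxisome proliferator activated receptor gamma, the nuclear receptor that drives preadipocytes to become fat cells and keeps the genes of lipid storage active in mature ones. CEBPB encodes a basic leucine zipper transcription factor that is induced early in this program and acts upstream of PPARG. LEP encodes leptin, the hormone that white fat cells release in proportion to their lipid stores and that acts on the brain to restrain feeding; brown fat cells make little of it. In newborn sheep, fat depots that burn lipid for heat are replaced within weeks by lipid-storing white fat, and cortisol is one of the hormones that prepare fetal tissues for birth.

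The sequences of the probes are shown because the results for LEP differed between its probes. Each is 60 bases long and is printed 5′ to 3′ as the array design gives it. In the PPARG probe, with a GC content of 45%, the capitals mark the last 3 bases, a TAG triplet. The CEBPB probe, with a GC content of 60%, was designed on an expressed sequence tag and reads a stretch that encodes part of the leucine zipper. The first LEP probe begins at base 184 of a partial coding record and the second at base 185, and capitals mark the 59 bases that they share, so that they are readings of the same target and not independent evidence.
PPARG: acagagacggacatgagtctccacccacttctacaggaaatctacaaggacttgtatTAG
CEBPB: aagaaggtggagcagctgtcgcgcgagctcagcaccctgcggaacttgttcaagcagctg
LEP coding probe 184: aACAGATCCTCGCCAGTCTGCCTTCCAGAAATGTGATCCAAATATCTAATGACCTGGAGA
LEP coding probe 185: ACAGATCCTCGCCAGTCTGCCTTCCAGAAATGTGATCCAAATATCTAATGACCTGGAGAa
The remaining LEP probe was designed on a record of the 3′ untranslated region (3′ UTR) of the leptin mRNA. It was the brightest of the LEP probes on average and stands for the gene where a single value is needed, with the coding probes given beside it.

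Values are log2 intensities after background correction, with an offset of 50 added, and quantile normalization over the 30 arrays. A difference of 1 on this scale is a doubling of the intensity with its offset, so that changes and folds of dim probes are understated. Intensities of different probes are not comparable as amounts of RNA, so each probe was compared only with itself across animals, or by how its offset from another probe changed between groups. All 5 member probes were well above background and unsaturated on each of the 30 arrays and passed the filter on dim probes, which kept 12837 probes for testing. Median foreground intensity per array was 132 to 240 over a background of 34 to 46. Arrays scanned together were taken as a slide: slides 1 and 4 held fetuses and slides 2 and 3 held lambs, with Control and CORT animals on each, so that age cannot be told apart from slide whereas treatment can. Of the markers of brown fat, UCP1, which uncouples respiration for heat, was between 13.75 and 15.56 in Control fetuses and between 9.34 and 11.91 in Control lambs, and FABP4, the fatty acid carrier of fat cells, averaged 13.27 and 13.72. Of 14 markers of striated muscle the array held 2. The skeletal troponin gene TNNC2 stood at 17.20 in Control fetus 2, whereas no other fetus exceeded 7.57, and MB (myoglobin, the oxygen carrier of heart and muscle, which brown fat also makes) ranged from 9.61 to 16.89 among Control lambs. The log2 of their summed intensity lay between 13.004 and 17.45 in Control fetuses, 13.57 and 16.004 in CORT fetuses, 9.81 and 16.89 in Control lambs and 11.20 and 15.81 in CORT lambs. In whole tissue, fewer cells of a type and less RNA per cell cannot be told apart.

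**Figure D1:**
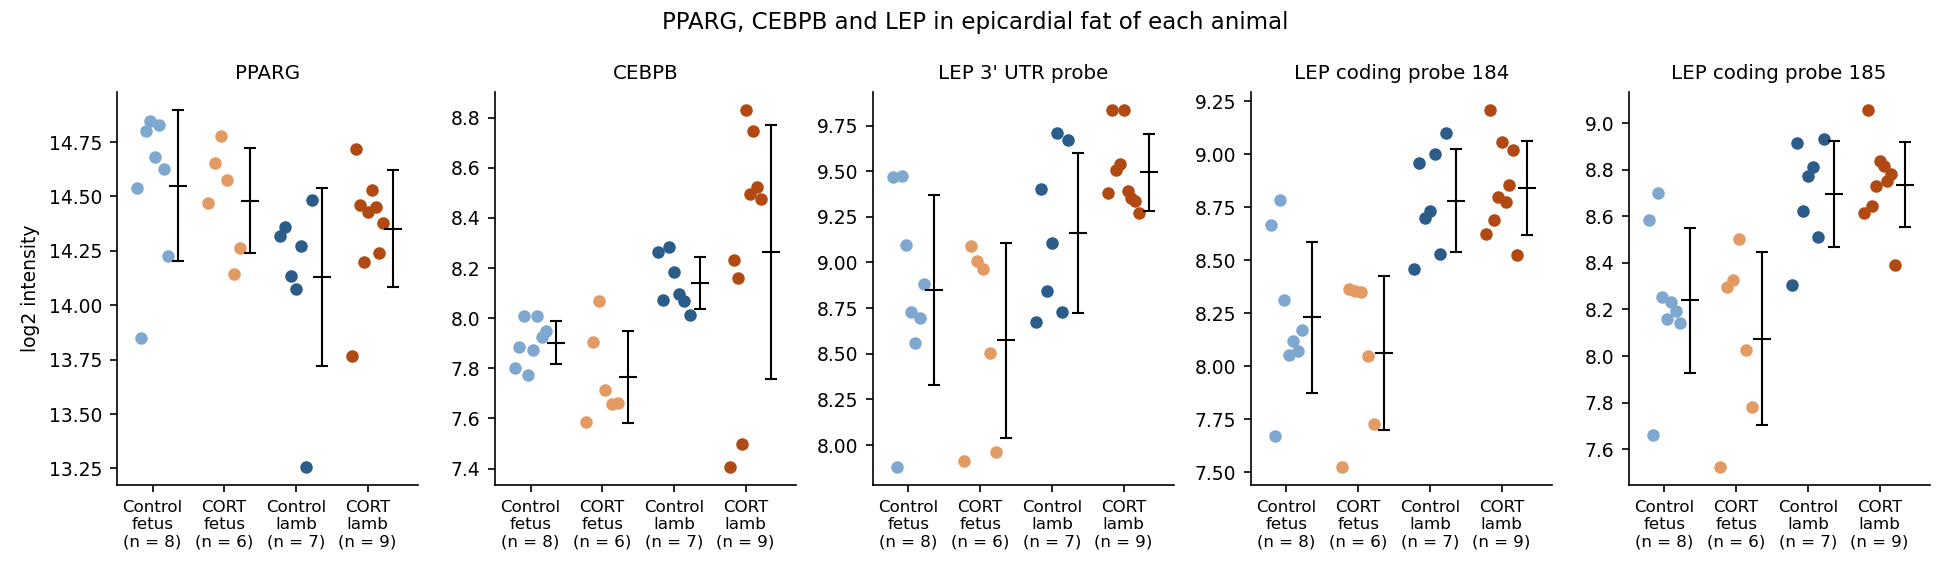
Log2 intensity of each member probe in each animal. Points are animals, ordered by replicate number within a group, and the bar to the right of each group is its mean ± SD. The 7 Control lambs lie above the 8 Control fetuses for CEBPB, the CORT lambs spread over 1.43 for CEBPB against 0.27 in Control lambs, and each vertical axis has its own range and does not start at 0.

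PPARG was lower in Control lambs than in Control fetuses, but the difference did not pass the test. Its level was 13.85 in the lowest Control fetus, 14.65 at the median and 14.85 in the highest. In Control lambs the lowest, median and highest values were 13.25, 14.27 and 14.48. All 7 lambs lay below the fetal mean, while the ranges overlapped. The mean was 14.13 ± 0.41 (SD, n = 7) in Control lambs and 14.55 ± 0.35 (SD, n = 8) in Control fetuses, a change of -0.42 (SE 0.18, 95% interval -0.80 to -0.04), or 1.34-fold lower, with a limma adjusted p of 0.0717 and an exact permutation p of 0.0426 for the single value. The comparison called 41.7% of all tested probes, 20.3% higher and 21.4% lower in lambs, and 48.8% passed at an unadjusted p under 0.05. This result depended on Control fetus 2, the animal with the high TNNC2 and the lowest PPARG of its group: without it the change was -0.52 with an adjusted p of 0.0154 in limma. Without Control lamb 6, the lowest lamb, it was -0.28 and did not pass. PPARG also passed when all 30 arrays shared one estimate of the spread (adjusted p = 0.0351) or when arrays were weighted by quality (adjusted p = 0.0194).

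The differences in PPARG with maternal cortisol did not pass at either age. CORT lambs had 13.77 at the lowest, 14.43 at the median and 14.72 at the highest, so that they spanned most of the Control range and 2 of 9 exceeded the highest Control lamb. The difference between CORT and Control lambs was 0.22 (SE 0.16, 95% interval -0.11 to 0.55; limma adjusted p = 1.00). In CORT fetuses the lowest, median and highest values were 14.14, 14.52 and 14.78, all inside the Control range. Their mean differed from that of Control fetuses by -0.07 (95% interval -0.40 to 0.26; limma adjusted p = 1.00), and the sign turned to 0.05 under cyclic loess normalization. Among all probes limma called 0.0% in CORT compared to Control lambs and 0.0% in CORT compared to Control fetuses, against 3.56% and 2.37% at an unadjusted p under 0.05. The order of the group means was Control fetus, CORT fetus, CORT lamb and Control lamb from high to low, with each neighbouring pair apart by less than the SD of either group.

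Among lambs, the animal with the lowest PPARG of each group had the highest MB of that group. Control lamb 6, with a PPARG level of 13.25, had the highest MB of any animal at 16.89. CORT lamb 1, with the lowest PPARG of its group at 13.77, had the highest MB of its group at 15.81. TNNC2 did not follow this pattern: it was highest in CORT lamb 9 (10.17), whose PPARG of 14.38 was close to the mean of its group, and no relation with TNNC2 was computed. Across animals, with each value taken relative to its group mean, the correlation of PPARG with MB was r = -0.67 (Spearman rho = -0.71) in the 14 fetuses, with permutation p of 0.00943 and 0.00917, and r = -0.59 (rho = -0.54) in the 16 lambs, with p of 0.0339 and 0.0395. Adjusted over the 6 relations of the members with MB, the p for r was 0.0566 in fetuses and 0.102 in lambs, and that for rho 0.0550 and 0.118, so neither passed. Without the 2 animals whose MB lay farthest from the median, r was -0.60 in fetuses and -0.80 in lambs. In lambs these were CORT lamb 5 and Control lamb 3. Control lamb 6 and CORT lamb 1 stayed in, so this does not show whether r in lambs rests on them. Centred on slide as well as on group, r was -0.66 in fetuses and -0.57 in lambs, each with an adjusted p of 0.0539. For CEBPB and LEP, r with MB was between -0.44 and -0.33, with adjusted p of 0.191 or more. Centred on slide as well, r in lambs was -0.57 for CEBPB (adjusted p = 0.0539) and -0.59 for LEP (adjusted p = 0.0575), much the same size as for PPARG. The differences in MB between groups did not pass in limma: the change was 0.32 (SE 0.89) with cortisol in lambs, 0.47 (SE 0.44) with cortisol in fetuses and -0.48 (SE 0.81) with age. The part of muscle RNA in the PPARG differences was not tested.

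**Figure D2:**
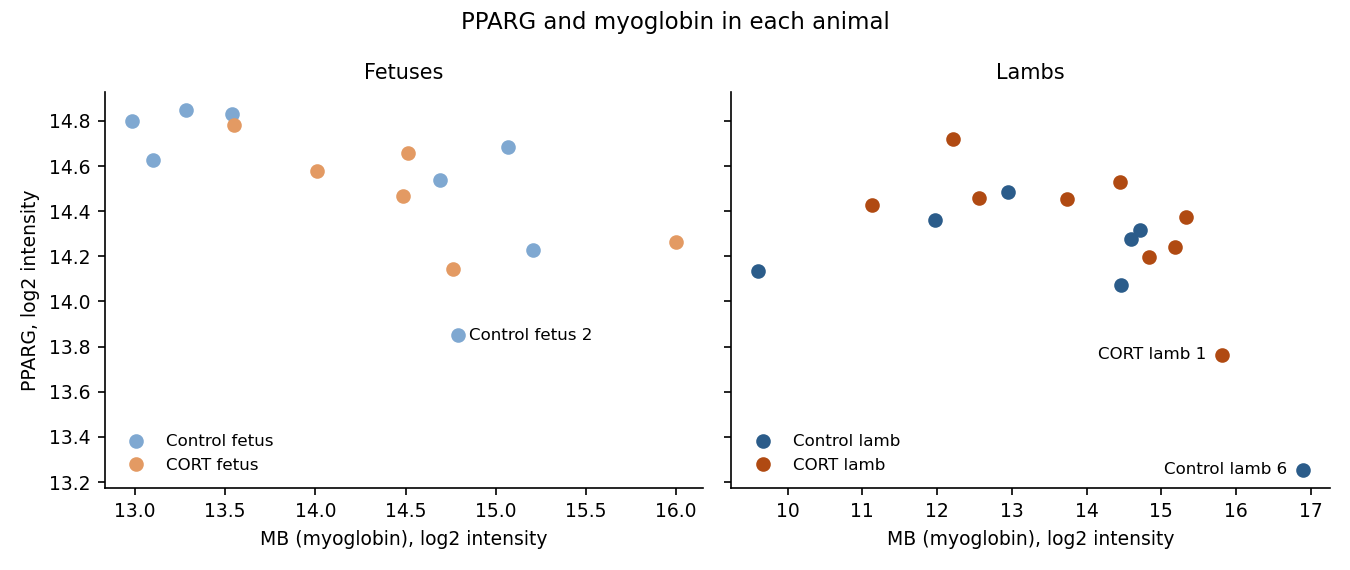
PPARG against MB (myoglobin), both as log2 intensity, in the 14 fetuses (left) and the 16 lambs (right). Points are animals, colored by treatment. Control lamb 6 and CORT lamb 1 combine the lowest PPARG of their groups with the highest MB, and Control fetus 2 has the lowest PPARG among the fetuses.

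CEBPB rose with age and varied little among Control animals. The Control fetuses had 7.77 at the lowest, 7.90 at the median and 8.01 at the highest. The Control lambs had 8.01, 8.10 and 8.28. Every one of the 7 lambs was above the highest of the 8 fetuses, by a margin that is small next to the whole range of either group. The means were 7.90 ± 0.09 (SD, n = 8) and 8.14 ± 0.10 (SD, n = 7), a rise of 0.24 (SE 0.06, 95% interval 0.12 to 0.36), or 1.18-fold, with a limma adjusted p of 0.00311. The exact permutation p was 0.000155, the smallest that this design allows. With the scanner's processed signal scaled to the 75th percentile the rise was 0.34 (limma adjusted p = 0.0230) and the SD of the Control lambs 0.23. Of all tested probes 20.3% were called higher and 21.4% lower with age, and how many separated fully was not counted. With slide as a random block the rise was 0.23 (adjusted p = 0.0115). As no slide held both ages, this block cannot separate age from slide. When the 30 arrays shared one estimate of the spread, which then includes the CORT lambs, the same rise of 0.24 had an adjusted p of 0.212.

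In CORT lambs the mean of CEBPB was not distinguishable from that of Control lambs, but the animals were far apart. The mean was 8.26 ± 0.51 (SD, n = 9) compared to 8.14 ± 0.10 (SD, n = 7), a difference of 0.12 (SE 0.18, 95% interval -0.26 to 0.50; limma adjusted p = 1.00). The SD was 4.83 times that of the Control lambs (exact permutation p = 0.00297), a comparison chosen after the values had been seen. Over the 12771 probes measured on all arrays the median of this ratio was 1.12, 0.462% of probes had one as large as CEBPB, 6.76% passed at an unadjusted p under 0.05 and 0 at the adjusted level, so that the adjusted p of CEBPB was 0.502 in the exact permutation test and it did not pass. Leaving out each lamb in turn gave ratios from 3.99 to 5.52. For the other 4 probes in lambs the ratio lay between 0.48 and 0.90. In fetuses CEBPB also had the larger SD with cortisol, 0.18 compared to 0.09, a ratio of 2.11 (exact permutation p = 0.0236, adjusted p = 1.00), where 3.55% of all probes passed before adjustment and 4.91% had a ratio as large.

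The wide spread of CEBPB in CORT lambs lay partly between the slides and partly within slide 3. On slide 2 the 5 CORT lambs were at 8.47, 8.50, 8.52, 8.75 and 8.83 and the 3 Control lambs at 8.01, 8.07 and 8.10. On slide 3 the 4 CORT lambs were at 7.40, 7.50, 8.16 and 8.23 and the 4 Control lambs at 8.07, 8.19, 8.26 and 8.28. CORT lambs were thus all above the Control lambs on slide 2, while on slide 3 they were lower on average and the groups overlapped. The mean difference between CORT and Control lambs was 0.56 on slide 2 and -0.38 on slide 3. The interaction of slide and cortisol, a test chosen after the values had been seen, was -0.93 (SE 0.23). Its limma p was 0.000964 and its adjusted p 0.265, so it did not pass over all probes. For this interaction 0.0% of the probes were called at the adjusted level and 11.3% at an unadjusted p under 0.05. In the log2 values that the authors deposited for the lambs, the differences were 0.68 on slide 2 and -0.52 on slide 3 and the SD ratio was 4.93. With the scanner's processed signal scaled to the 75th percentile they were 0.79 and -0.72, with a ratio of 3.43. The Control lambs of the slides differed far less, with means of 8.06 and 8.20, and since each lamb was on 1 slide, differences between the animals and between the slides cannot be told apart in the split of the CORT lambs. Median foreground intensity was 165 to 235 in CORT and 150 to 161 in Control lambs on slide 2. On slide 3 it was 132 to 166 in CORT and 158 to 188 in Control lambs. The dimmest array, of CORT lamb 2 at 132, had a CEBPB of 8.23. The part of array brightness in the CEBPB split was not tested.

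**Figure D3:**
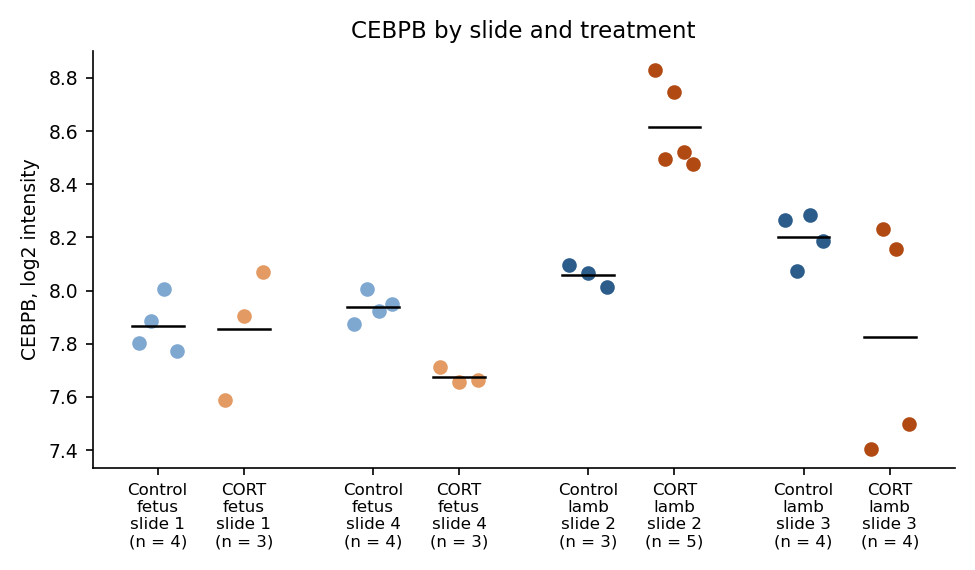
Log2 intensity of CEBPB by slide and treatment. Points are animals and lines are means. On slide 2 the 5 CORT lambs lie above the 3 Control lambs by 0.56 on average, and on slide 3 the 4 CORT lambs lie below the 4 Control lambs by 0.38 on average.

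In fetuses the change of CEBPB with cortisol was negative and did not pass. The 6 CORT fetuses had 7.59 at the lowest, 7.69 at the median and 8.07 at the highest, and 4 of them were below the lowest of the 8 Control fetuses while 1 was above the highest. The difference was -0.14 (SE 0.07, 95% interval -0.30 to 0.02), with a limma p of 0.0872, an adjusted p of 1.00 and an exact permutation p of 0.0879. It was -0.01 on slide 1 and -0.26 on slide 4, where the 3 CORT fetuses lay between 7.66 and 7.71 and the 4 Control fetuses between 7.87 and 8.01. The interaction of slide and cortisol in fetuses, also chosen after the values had been seen, was -0.25 (SE 0.14; limma adjusted p = 1.00). For it 0.0% of probes were called and 3.43% passed at an unadjusted p under 0.05. From low to high, the group means of CEBPB ran from CORT fetus over Control fetus and Control lamb to CORT lamb. The difference between both fetal groups and that between both lamb groups did not pass.

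Leptin rose with age on its coding probes, and the difference on the 3′ UTR probe did not pass. With coding probe 184 the Control fetuses had 7.67 at the lowest, 8.14 at the median and 8.78 at the highest, and the Control lambs 8.46, 8.73 and 9.10. All 7 lambs were above the fetal mean and 3 exceeded the highest fetus. The rise was 0.55 (SE 0.15, 95% interval 0.23 to 0.87), or 1.46-fold, with a limma adjusted p of 0.00708 and an exact permutation p of 0.00575. In this comparison 20.3% of all tested probes were called higher. Coding probe 185 rose by 0.46 (SE 0.13; adjusted p = 0.0118), also with all 7 lambs above the fetal mean, and with the replicate number as a block its adjusted p was 0.0714. On the 3′ UTR probe the Control fetuses spanned 7.88 to 9.47 with a median of 8.81, and the Control lambs 8.67 to 9.71 with a median of 9.11. Its difference was 0.32 (SE 0.23, 95% interval -0.17 to 0.80), which did not pass (limma adjusted p = 0.294), and 4 of 7 lambs were above the fetal mean. Without Control fetus 2 it was 0.18, and over all animals left out in turn it lay between 0.18 and 0.40. With slide as a random block the values of the coding probes were 0.55 (adjusted p = 0.0236) and 0.46 (adjusted p = 0.0385). Here too the block cannot separate age from slide.

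In lambs, the 3′ UTR probe passed with cortisol before adjustment only, and the coding probes did not pass. The 9 CORT lambs lay between 9.27 and 9.84 on the 3′ UTR probe with a median of 9.39, all above the Control mean, and 2 of them exceeded the highest of the 7 Control lambs. The mean was 9.49 ± 0.21 (SD, n = 9) compared to 9.16 ± 0.44 (SD, n = 7), a difference of 0.33 (SE 0.15, 95% interval 0.01 to 0.65), with a limma p of 0.0456, an adjusted p of 1.00 and an exact permutation p of 0.0673. The difference was 0.07 on slide 2 and 0.56 on slide 3. Coding probe 184 differed by 0.06 (95% interval -0.18 to 0.29) and coding probe 185 by 0.04 (95% interval -0.17 to 0.25), with adjusted p of 1.00 in limma, and the latter turned to -0.02 without Control lamb 1. Of the 3 endothelial markers 2 also passed before adjustment only, PECAM1 (0.35, SE 0.16) and FLT1 (0.16, SE 0.07), and the log2 of the summed endothelial signal was 12.47 to 13.32 in CORT lambs and 11.79 to 12.77 in Control lambs. The part of endothelial RNA in the LEP difference was not tested.

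The offset between the LEP probes itself was then compared, a test chosen after the values had been seen. The 3′ UTR probe minus the mean of the coding probes was 0.71 ± 0.15 (SD, n = 9) in CORT lambs and 0.42 ± 0.23 (SD, n = 7) in Control lambs. All 9 CORT lambs lay above the Control mean. The difference in offset was 0.28, with an exact permutation p of 0.0139 and, adjusted over the 3 comparisons between groups, of 0.0417. That adjustment does not cover the choice of the offset after the values were seen. Offsets between probes of other genes were not compared. It was 0.10 on slide 2 and 0.44 on slide 3. Leaving out each lamb in turn it ranged from 0.24 to 0.34, with exact p from 0.00260 to 0.0308. It was 0.28 (exact permutation p = 0.0254) with the scanner's processed signal scaled to the 75th percentile and 0.33 (exact permutation p = 0.0101) in the deposited log2 values. In CORT compared to Control fetuses the difference in offset was -0.11 (exact permutation p = 0.361), and in Control lambs compared to Control fetuses it was -0.19 (exact permutation p = 0.131). Across animals the 3′ UTR probe and the coding probes correlated with r of 0.95 to 0.98 in the 14 fetuses and 0.75 to 0.80 in the 16 lambs, and the 2 coding probes with each other at 0.97 and 0.92. The parts of LEP level, probe brightness and transcript region in the offset were not tested.

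**Figure D4:**
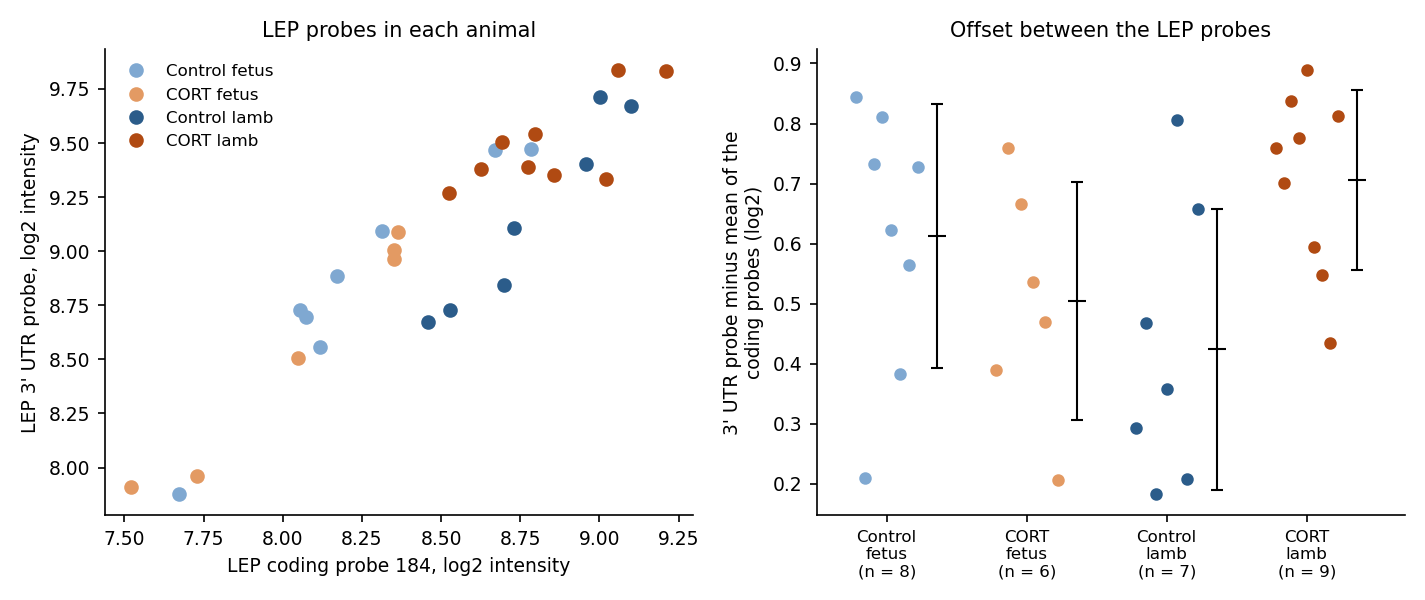
Left, log2 intensity of the LEP 3′ UTR probe against that of coding probe 184, with each point an animal. Right, the 3′ UTR probe minus the mean of the coding probes in each animal, with mean ± SD per group. The offset averages 0.71 in CORT lambs and 0.42 in Control lambs, and its absolute size has no meaning since the probes differ in brightness.

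In fetuses no LEP probe passed with cortisol. On the 3′ UTR probe the 6 CORT fetuses lay between 7.91 and 9.09 with a median of 8.73, inside the range of the Control fetuses. The difference was -0.28 (SE 0.26, 95% interval -0.83 to 0.28), and it was -0.17 (95% interval -0.55 to 0.21) on coding probe 184 and -0.16 (95% interval -0.52 to 0.19) on coding probe 185, each with an adjusted p of 1.00 in limma. Control fetus 2, with the high TNNC2, had the lowest LEP of its group on all 3 probes, and leaving out each fetus in turn moved the difference on the 3′ UTR probe between -0.41 and -0.14. From low to high, LEP was ordered CORT fetus, Control fetus, Control lamb and CORT lamb on each of the 3 probes, and of the neighbouring pairs that were tested the step from Control fetus to Control lamb passed on the coding probes alone.

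The cortisol effect of the lambs minus that of the fetuses was positive on all 5 probes and passed on none. It was 0.29 (SE 0.23) for PPARG, 0.26 (SE 0.21) for CEBPB, 0.61 (SE 0.30) for LEP on the 3′ UTR probe and 0.23 and 0.21 on its coding probes. The smallest limma p was 0.0553, for the 3′ UTR probe, and all adjusted p were 1.00. In this comparison limma called 0.0% of all probes, and 2.04% passed at an unadjusted p under 0.05.

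**Figure D5:**
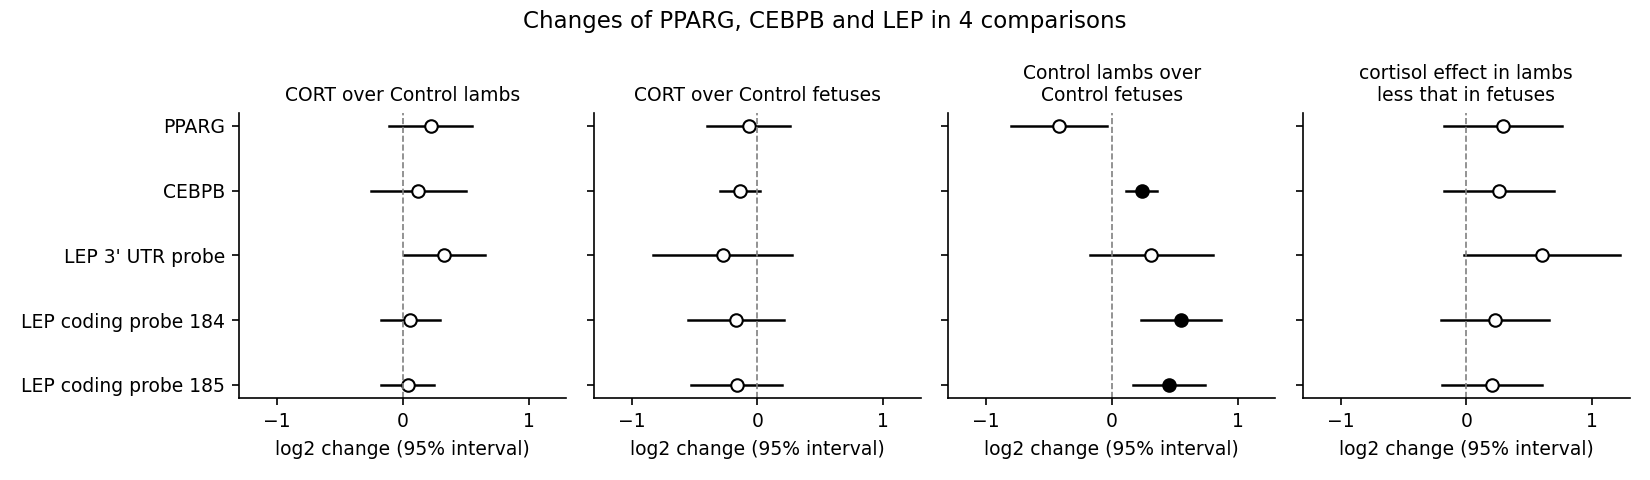
Log2 change of each member probe in the 4 comparisons, with its 95% interval from limma. Filled points passed an adjusted p of 0.05 over 12837 probes. CEBPB (0.24) and the LEP coding probes (0.55 and 0.46) passed in Control lambs compared to Control fetuses, and no member passed in the other comparisons.

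Among animals of an age, PPARG and LEP were positively correlated, but the relation did not pass after adjustment. With values relative to the group mean, r for PPARG and the LEP 3′ UTR probe was 0.62 (rho = 0.50) in the 14 fetuses, with permutation p of 0.0252 and 0.0865, and 0.52 (rho = 0.46) in the 16 lambs, with p of 0.0557 and 0.0982. Adjusted over the 6 relations between members, p for r was 0.121 in both and for rho 0.279 in both. Without Control fetus 2 and CORT fetus 5, which lay farthest out in PPARG, r in fetuses fell to 0.41, and without CORT lamb 1 and Control lamb 6 it was 0.46 in lambs. The relation in lambs passed with the scanner's processed signal scaled to the 75th percentile (r = 0.71, adjusted p = 0.0124). Centred on slide as well, r was 0.66 in fetuses and 0.72 in lambs, with adjusted p of 0.165 and 0.125. PPARG and CEBPB correlated with r of 0.37 (rho = 0.43) in fetuses and 0.40 (rho = 0.09) in lambs, with adjusted p for r of 0.237 and 0.121. In lambs that relation rested on CORT lamb 1 and Control lamb 6, without which r was 0.10. CEBPB and LEP correlated with r of 0.38 (rho = 0.38, adjusted p for r 0.241) in fetuses and -0.07 (rho = -0.25, adjusted p for r 0.752) in lambs. None of the relations passed as first computed.

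Likeness across the 30 animals, again relative to the group mean, was ranked over 885 named genes, and genes among the 3 highest are given for each member as a description; the values share the arrays and slides. PPARG was most like ADIG (r = 0.85), which encodes adipogenin, a small protein of fat cells, and C3 (0.80), the complement protein that fat tissue also makes, was among its 3 highest. For ADIG r was 0.94 in fetuses and 0.79 in lambs, and for C3 it was 0.78 and 0.82. For CEBPB the leading genes were IGFBP4 (0.73), which binds insulin-like growth factors, HSD11B2 (0.71), the enzyme that inactivates cortisol, and RPL10 (0.70), a ribosomal protein, and for RPL10 r was 0.81 in lambs and -0.22 in fetuses. LEP was most like LOC443165 (0.73), CBX5 (0.70), which encodes a heterochromatin protein, and SLC16A1 (0.69), a lactate and ketone transporter.

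The other genes of the adipogenic program were taken from 4 lists, of which only a part was on the array. A listed gene with more than 1 probe, such as LPL, DGAT1, STAT5A or DDIT3, was represented by its brightest probe on average. The other probes of such genes are not given here. The first held 40 transcription factors and cofactors, and the next 37 PPARG targets and adipocyte genes, called PPARG targets below. The others held 35 genes of leptin and insulin signalling and other adipokines, and 16 cortisol response genes. NR3C1 is on the first and the last list. In Control lambs compared to Control fetuses, of 6 tested adipogenic transcription factors and cofactors 1 rose and 4 fell, with a median change of -0.30 beside -0.01 over all probes. PPARGC1A, the coactivator of PPARG in heat-producing fat, fell by 1.26 on the log2 scale (SE 0.15; adjusted p = 8.66e-06). DDIT3, which binds and blocks C/EBP factors such as CEBPB, fell by 0.46 (SE 0.06; adjusted p = 3.10e-05). Its probe was dim, and over the other ways of processing its change lay between -1.20 and -0.46. STAT5A, a signal transducer that promotes fat cell formation, fell by 0.39 (SE 0.08; adjusted p = 0.000948), and PPARA, the relative of PPARG that drives fat oxidation, was the other factor to fall, with a change of -0.21 (adjusted p = 0.0369). NR3C1, the cortisol receptor, rose by 0.90 (SE 0.07; adjusted p = 1.68e-07), and GATA3, which holds back preadipocytes, did not pass (0.16, SE 0.21). The share called, 5 of 6, stands beside 41.7% of all probes.

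Of 16 tested PPARG targets, 2 rose with age, 4 fell and 10 did not pass, beside 41.7% of all probes called, with a median change of -0.06 beside -0.01 over all probes. LPL, the lipase that brings blood lipid into fat cells, rose by 1.81 (SE 0.19; adjusted p = 2.37e-06) and SCD, which desaturates stored fatty acids, by 1.27 (SE 0.38; adjusted p = 0.0122). UCP1 fell by 4.19 on the log2 scale (SE 0.35; adjusted p = 1.67e-07), and DGAT1, which makes triglyceride, fell by 1.44 (SE 0.18; adjusted p = 9.76e-06). CPT1B, the muscle and brown fat enzyme that takes fatty acids into mitochondria, changed by -1.18 and ME1, which supplies NADPH for fatty acid synthesis, by -1.06, and both passed. Without Control lamb 6 the number that rose was 4 instead of 2. FABP4 did not pass (0.44, SE 0.38), nor did the lipid droplet protein PLIN1 (0.27, SE 0.16). As for cell types, of 3 brown fat markers (10 in the list) UCP1 and PPARGC1A fell, of 4 fibroblast and matrix markers (12 in the list) all 4 rose, and of 4 myeloid markers (11 in the list) 2 rose. Of 3 endothelial markers (11 in the list) FLT1, a receptor for VEGF, changed by -0.36 (adjusted p = 0.00105 in limma) and the others did not pass, and 0 of 3 lymphocyte and 0 of 2 erythroid markers passed. The log2 of the summed brown fat signal was 13.83 to 15.59 in Control fetuses and 10.30 to 12.15 in Control lambs, and that of the matrix genes 17.16 to 17.80 and 17.91 to 18.25. Neither of the 2 striated muscle markers passed, and the part of these cell types in the changes of PPARG, CEBPB and LEP was not tested.

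In leptin and insulin signalling, 3 of 10 tested genes rose with age, 0 fell and 7 did not pass, a share called that was below the 41.7% of all probes, with a median change of 0.07. GHR, the growth hormone receptor, rose by 1.45 (SE 0.20; adjusted p = 2.63e-05) and IGF1, the growth factor that it induces, by 1.21 (SE 0.22; adjusted p = 0.000347). TNF, an inflammatory cytokine that opposes insulin action in fat, rose by 0.26 (SE 0.07; adjusted p = 0.00721). TNF was a dim probe, with means of 6.43 in Control fetuses and 6.68 in Control lambs, and over the other ways of processing its rise lay between 0.25 and 1.40. The leptin receptor gene LEPR, IL6 and GHRL were on the array but did not pass the filter on dim probes. Of 6 tested cortisol response genes, 4 rose, with NR3C1 counted again, and 1 fell, beside 20.3% of all probes called higher and 21.4% lower. HSD11B1, which regenerates cortisol inside cells, rose by 0.95 (SE 0.30; adjusted p = 0.0191) and HSD11B2 by 0.90 (SE 0.18; adjusted p = 0.000707), while the vessel growth factor VEGFA fell by 0.83 (SE 0.11; adjusted p = 1.55e-05). With cortisol, 0 genes of these 4 lists passed in limma in lambs, in fetuses or in the difference between them. At an unadjusted p under 0.05, 2 of 16 PPARG targets and 1 of 6 cortisol response genes passed in lambs (3.56% of all probes), 0 genes of the 4 lists in fetuses (2.37%), and 1 PPARG target in the difference between the ages (2.04%).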

How the data were processed

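RNA from the EAT of 30 sheep was hybridized to a 1-colour (Cy3) Agilent sheep array, 1 array per animal. Per the file headers, Agilent Feature Extraction 10.1.1.1 gave the mean foreground and median background intensity of each spot and flags (values of 0 or 1 in other columns). The authors deposited background-corrected, quantile normalized log2 values made with limma; those of the lambs were used as an alternative, and those of the fetuses were not used here. A genome build for the probes is not given in the sources used here, so no coordinates are printed.

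Intensities were corrected with normexp (offset 50) and quantile normalized over the 30 arrays in limma 3.58.1 (R 4.3.3). Outlier spots (3 to 17 per array) were left out and repeated spots averaged. Probes at least 10% brighter than the 95th percentile of 77 negative controls on at least 6 arrays were tested (12837). The 4 comparisons used lmFit and eBayes, two-sided, with only the compared groups in the fit (all 30 arrays for the difference between the ages), and Benjamini-Hochberg adjustment over all tested probes at 0.05. Single probes were also tested by exact two-sided permutation of animals, as was the ratio of SDs over all probes, and relations across animals by 100000 permutations within group, two-sided. Array number limits the precision. On simulated data with 200 changed probes, a log2 change of 1 was recovered for 96% in lambs, 91% in fetuses and 95% with age, and one of 0.5 for 78%, 78% and 74%. The changed probes were drawn at random, with independent noise and no effect of slide. These shares are averages over such probes and do not give the recovery for the members.

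Named were all member probes and, from each of the 4 context lists, up to 4 genes with the largest change among those called, besides the 3 genes most like each member over 885 named genes, of which 1 is not reported here. FABP4, PLIN1, GATA3, PPARA, CPT1B, ME1, LEPR, IL6, GHRL, FLT1, PECAM1, MB and TNNC2 were named after their values were seen. The members and lists were chosen with earlier results of these data known. Alternatives were other background corrections, scalings and filters, slide and replicate blocks, other probes, array weights and leaving out each animal. Replicate numbers were not taken as pairs, since not every pair with the same number correlated above 0.1 in any comparison (5 of 7 did in lambs, 3 of 6 in fetuses and 1 of 7 between the ages).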

Additional observations from a re-analysis of the deposited data

Results flagged for a closer look

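PPARG in Control lamb 6 lay apart from the other 6 Control lambs: its level was 13.25, the next lowest was 14.07, and the gap was 0.665 of the range of the group, above the critical value of Dixon's test for 7 animals. Of the 20 sets of values examined (5 probes in 4 groups) this was the only one with an animal so far out, and chance alone gives about 1 in 20. The same animal had the highest MB, 16.89. Without it, the difference in PPARG between CORT and Control lambs was 0.08 instead of 0.22, and that between Control lambs and Control fetuses -0.28 instead of -0.42.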

How the results depend on the processing

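Values are log2 changes unless stated. In fetuses PPARG with cortisol was 0.049 under cyclic loess normalization, and limma called 1 probe with the replicate block instead of 0. With age, PPARG passed with all 30 arrays in one fit (-0.42) and with array weights (-0.41), while CEBPB did not pass with all 30 arrays in one fit (0.24, adjusted p = 0.212). LEP with age was 0.55 on coding probe 184 and 0.46 on coding probe 185, and passed on both. The size of the change with age of dim genes moved most: TNF ranged from 0.25 to 1.40, DDIT3 from -1.20 to -0.46 and STAT5A from -0.76 to -0.37. For PPARG and LEP in lambs r was 0.71 with 75th percentile scaling, which passed. For CEBPB and LEP in lambs r turned from -0.07 to 0.21 centred on group and slide, and to 0.17 and 0.034 with the coding probes. Leaving out each animal in turn, PPARG with age ranged from -0.52 to -0.28, LEP coding probe 185 with cortisol in lambs from -0.025 to 0.084, and the number of probes called with cortisol in fetuses from 0 to 1. The causes were not tested. Counts at an unadjusted p under 0.05 with cortisol over the other alternatives were 432 to 792 in lambs against 457, and 234 to 654 in fetuses against 304. Leaving out each animal in turn they were 278 (without Control lamb 1) to 689 (without Control lamb 6) in lambs and 237 to 515 (without Control fetus 2) in fetuses. All alternatives kept the direction of the 5 probes with age. The 5 probes were well above background on all 30 arrays, and the part of array brightness in their differences was not tested.

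Replicate numbers were shared between groups. The correlation of animals with the same number ran from -0.06 to 0.41 over 7 pairs of lambs (5 above 0.1, and 4 best with their own number, a hint from the data and not the design), from -0.19 to 0.41 over 6 pairs of fetuses (3 above 0.1, 1 best with its own number) and from -0.23 to 0.24 over 7 pairs between the ages (1 above 0.1, 0 best with their own number). With the replicate block, the members' changes with age were -0.47 for PPARG, 0.24 for CEBPB (adjusted p = 0.0218) and 0.54 and 0.44 for the LEP coding probes, the latter with an adjusted p of 0.0714, and the block changed no other call of a member.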
